A study of Mus musculus with 6 samples.

Results

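Genes of the secretory antibody route were read in the mouse stomach lining: 4 genes of the B cell surface and its signalling (Cd79a, Cd79b, Ms4a1, Cd22), 3 genes of antibody-secreting plasma cells and their precursors (Pou2af1, Tnfrsf17, Igj) and Pigr, the epithelial receptor that exports antibody. Members were found by the gene name the array gives each probe, and 9 of the 39429 probes that are not controls carry 1 of the 8 names (of 31829 gene names on the array). Pigr has 2 probes and each other member has 1. Of the 9, 6 probes were well above background on at least 3 of the 6 arrays and were tested, and 3 (Cd79a, Ms4a1 and Tnfrsf17) were well above background on no array.

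RNA came from the mucosa of the glandular stomach, separated from the muscle layer, of C57BL/6J mice. The wild-type group held 3 mice, aged 5, 10 and 50 weeks, and the A4gnt-null group 3 mice of the same ages, so each genotype and age is 1 mouse on 1 one-colour Agilent array. A4gnt encodes the enzyme that adds the terminal α1,4-linked N-acetylglucosamine to the O-glycans of gland mucin, and the extent of the deletion is not given in the labels. Signals are given as scaled signals, which are background-subtracted fluorescence intensities with each array brought to a common 75th percentile, and differences are on the log2 scale, null minus wild type unless stated.

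In mucosal tissue, B cells carry a membrane antibody coupled to the signalling chains Cd79a and Cd79b, and those that mature into plasma cells secrete antibody. The joining chain, made from Igj (now Jchain), links IgA or IgM units into polymers. Pigr, on the basal side of epithelial cells, binds these polymers, carries them through the cell and releases them into the lumen with part of itself attached.

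Some facts of the whole series touch all results that follow. The A4gnt probe was above background in the 3 wild-type mice and in none of the null mice, where its signal was lower by factors of at least 15.3 to 36.4 depending on the age. On the arrays 54.8% to 59.2% of spots were well above background, and no spot was saturated. The wild-type arrays shared 1 slide and 1 scan and the null arrays another, so slide and genotype cannot be told apart. Both 5-week arrays carried Xist, the RNA of the inactive X chromosome, and lacked the Y-linked Eif2s3y (scaled signals of 4.33 and 4.15), which stood between 564 and 838 on the other 4. Comparisons of 50 with 5 weeks therefore also compare sexes, and those of 50 with 10 weeks do not. Fewer cells of a type and less RNA per cell cannot be told apart in such tissue samples.

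The probe sequences are shown for the members the results turn on, because the 2 Pigr probes are of different kinds. Each line gives 30 of the 60 bases, 5′ to 3′, and capitals mark a repeated unit (GAA or AACC).
Pigr, probe at mm9 chr1:132748041-132748100, plus strand, first 30 bases: tcatgattttcagatgagaagagatgtttc
Pigr, probe placed at mm9 chrX:118770552-118770611, minus strand, last 30 bases: aaGAAGAAGAAGAAGAAGAAGAAGAAGAAg
Gcm1, a probe placed at mm9 chr7:123731567-123731626, minus strand, 30 bases of it: GAAGAAGAAGAAGAAGAAGAAGAAGAAGAA
Igj, probe at mm9 chr5:88949919-88949978, minus strand, first 30 bases: ctgtactagtctttctcttaacctctcact
Pou2af1, probe at mm9 chr9:51048121-51048180, plus strand, first 30 bases: gcatccaaacagatttcctccagagcctca
Cd22, probe at mm9 chr7:31651249-31651308, minus strand, first 30 bases: gaaaaatgaaaAACCAACCAACCAACCaaa
RefSeq places Pigr on chromosome 1, so the file's own placement of the second Pigr probe is on another chromosome than the gene. That probe consists of G and A only (100% of its bases) and has 6 different triplets among its 58, as few as 17 of all 39429 probes (0.0431%). The chromosome 1 probe has 31 different triplets. The Cd22 probe, with 22, is also of low complexity (0.657% of probes have as few).

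The comparison of genotypes asks whether these genes differ in stomach mucosa without the enzyme. On its chromosome 1 probe, Pigr was higher in the null mouse at every age, and on its repeat probe it was not. Pou2af1, a transcriptional coactivator of B cells and plasma cells, was also higher in the null mouse at every age, at low signals. Igj was modestly higher in the null mice of 10 and 50 weeks, and in both genotypes its largest difference was between ages. The B cell surface genes were at or near background or showed no common direction.

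The Pigr probe on chromosome 1 read 69.2, 173 and 254 in the wild-type mice of 5, 10 and 50 weeks and 321, 1035 and 2627 in the null mice. The genotypes did not overlap, and the lowest null signal, that of the 5-week mouse, lay above the highest wild-type signal, that of the 50-week mouse. Pigr was thus 4.64-fold higher in the null mouse at 5 weeks, 6.00-fold at 10 weeks and 10.3-fold at 50 weeks. Over the 3 ages the mean difference of the chromosome 1 Pigr probe was 2.72 ± 0.26 (log2, ± SE, n = 3 per genotype), a 6.60-fold difference, with an unadjusted limma p of 0.000357. It did not pass after Benjamini-Hochberg adjustment over the 22136 probes tested (limma adjusted p = 0.0988), and 0% of all probes passed. With a normexp background correction the same difference was 2.24 and passed (limma adjusted p = 0.0343), and with a variance trend it also passed (limma adjusted p = 0.0480). These 2 settings called 300 and 71 probes in all. In the other 11 of 13 alternatives it did not pass, with a limma adjusted p of up to 0.309.

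The Pigr repeat probe read 18174, 6799 and 8362 in the wild-type mice and 8185, 12920 and 17469 in the null mice of 5, 10 and 50 weeks. Its highest signal was that of the 5-week wild-type mouse, and the genotypes overlapped. It was 2.22-fold lower in the null mouse at 5 weeks and 1.90-fold and 2.09-fold higher at 10 and 50 weeks. The mean difference of this Pigr probe was 0.28 ± 0.51 (limma unadjusted p = 0.609), and it changed sign without the 10-week pair (-0.04) or without the 50-week pair (-0.11). A rule that keeps, for each gene name, the probe with the highest mean signal keeps this probe alone, and Pigr then stands at 0.28.

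The pattern of the Pigr repeat probe was set against other probes as the root mean square distance between the 6 log2 signals, each centred on its probe's mean. Of the 45 probes on the array that hold GAA at least 6 times in a row, 33 were above background on all 6 arrays; they carry 31 gene names and lie on 16 chromosomes. Of these 33, 32 (97.0%) lay within a distance of 0.3 of the Pigr repeat probe, itself counted, against 83 (0.422%) of all 19656 probes above background on every array. The Pigr probe on chromosome 1 lay 1.65 away. By the naming rule, the named genes nearest to the Pigr repeat probe were Gcm1 (0.10), Rhox8 (0.11) and Dcc (0.13), all 3 by probes with the same repeat. The median genotype difference of the 33 was 0.16, with a range of -0.45 to 0.37, and 0 had an unadjusted limma p under 0.05.

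**Figure D1:**
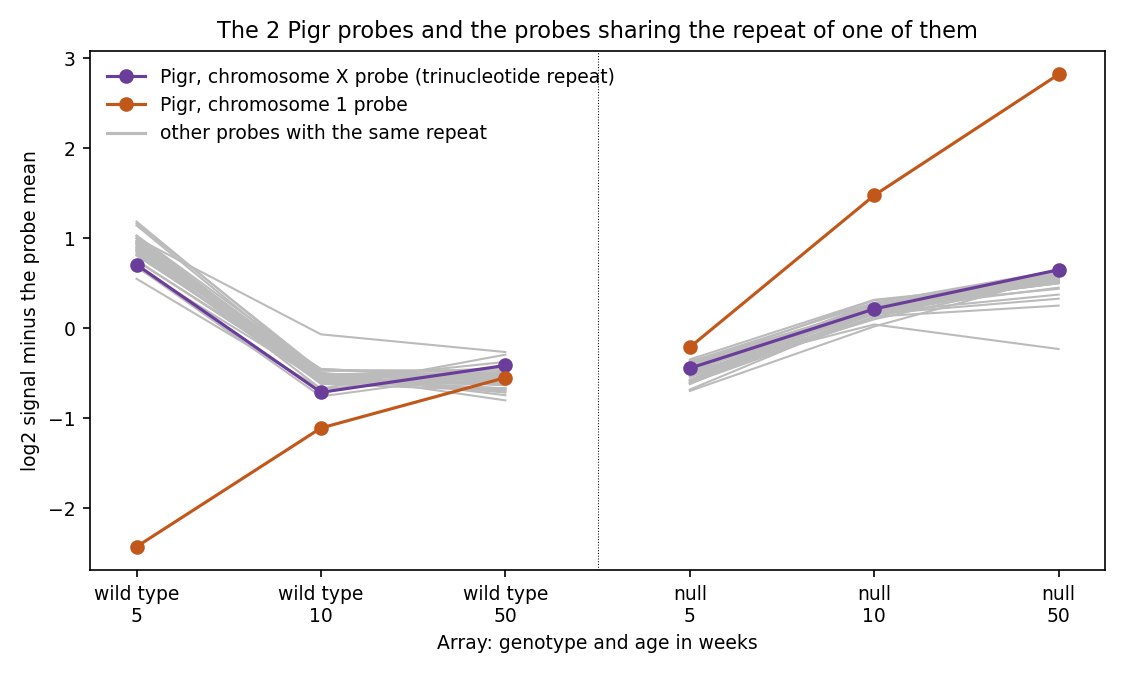
Signals of the 2 Pigr probes (log2, each minus its probe's mean) on the 6 arrays, ordered by genotype and age in weeks, with the other probes that hold the same trinucleotide repeat and were above background on all arrays in grey. The Pigr repeat probe runs within the grey lines, high in the 5-week wild-type mouse, while the chromosome 1 probe is lowest there and highest in the 50-week null mouse.

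Pou2af1 read 5.08, 21.1 and 20.1 in the wild-type mice of 5, 10 and 50 weeks and 24.5, 58.8 and 45.9 in the null mice. The 5-week wild-type signal was not well above background, and the other 5 were. All null signals lay above all wild-type signals. The signal of Pou2af1 in the null mouse was at least 1.76-fold that of the wild type at 5 weeks, 2.78-fold at 10 weeks and 2.28-fold at 50 weeks. Its mean difference was 1.65 ± 0.25 (limma unadjusted p = 0.00226, adjusted p = 0.127). The size depends on the treatment of dim signals: it was 1.16 with signals below background raised to each array's lowest signal above it, and 0.39 with normexp.

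Igj read 8.62, 32.8 and 128 in the wild-type mice of 5, 10 and 50 weeks and 15.6, 62.6 and 176 in the null mice. Neither 5-week signal was well above background. At 10 and 50 weeks the null signal was the higher one, but across ages the genotypes overlapped. Igj was 1.91-fold higher in the null mouse at 10 weeks and 1.37-fold at 50 weeks, with a mean difference of 0.75 ± 0.15 over the 3 ages (limma unadjusted p = 0.00664, adjusted p = 0.143). With signals below background raised as above, it was 0.43 (limma unadjusted p = 0.123), and with normexp 0.25.

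Among the B cell surface genes, Cd79b read 55.1, 14.4 and 17.1 in the wild-type mice of 5, 10 and 50 weeks and 32.1, 30.04 and 23.6 in the null mice. Its highest and lowest signals were both wild type, and its difference of 0.25 ± 0.39 did not exceed its error (limma unadjusted p = 0.558); without the 10-week pair it was -0.16. Cd22, an inhibitory receptor that binds sialic acid, read 202, 98.1 and 93.1 in the wild-type and 103, 110 and 74.6 in the null mice. Its difference was -0.37 ± 0.25 (limma unadjusted p = 0.211), and the genotypes overlapped. The named genes with the most similar pattern to Cd22 were Traf6 (distance 0.09), St6galnac4 (0.10) and Mndal (0.10), and 11056 probes varied enough to be compared.

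Cd79a read between 5.44 and 12.99, Ms4a1 (the CD20 antigen) between 1.80 and 10.68, and Tnfrsf17, the plasma cell survival receptor BCMA, between 1.61 and 2.89, none well above background. The lowest signal called well above background corresponded to 7.77 to 13.9 scaled units, depending on the array. These 3 genes have no order between mice and no fold change, and were not detectable at this signal.

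**Figure D2:**
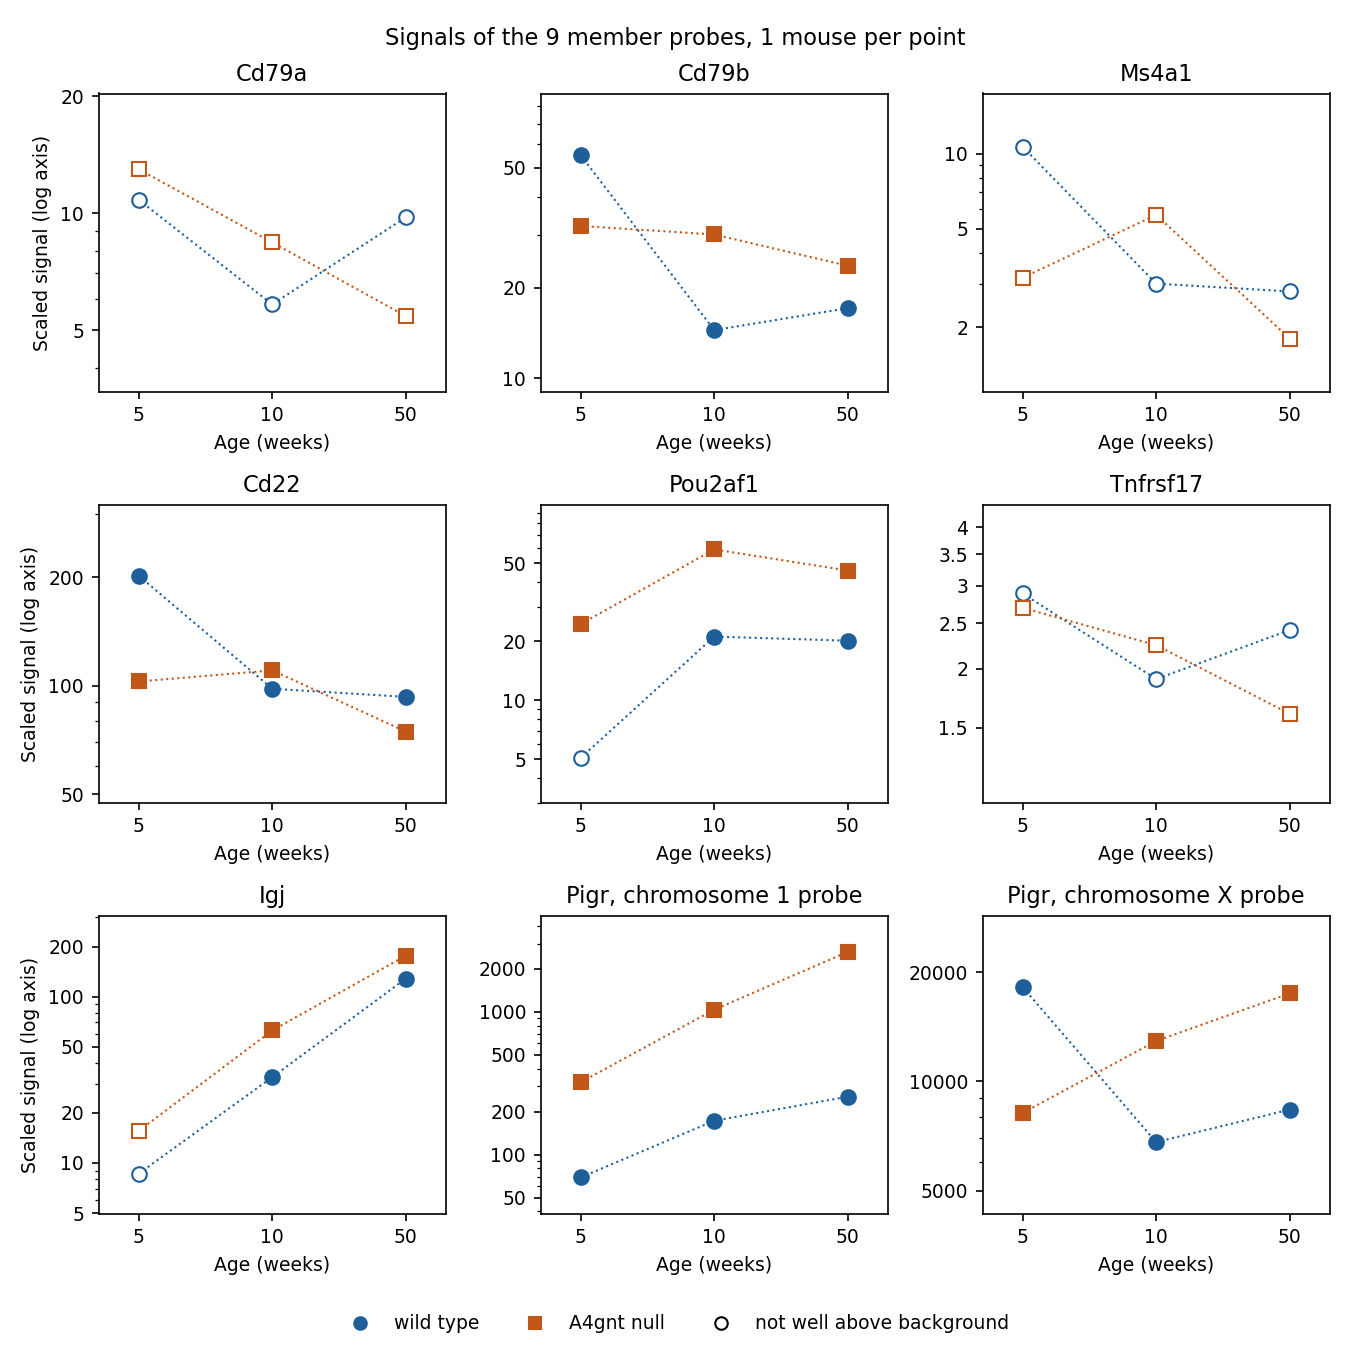
Scaled signal (log axis, a separate range in each panel) of the 9 probes against age in weeks, with ages evenly spaced and 1 mouse per point. Open symbols were not well above background, dotted lines join mice of 1 genotype, and the null mice (squares) lie above the wild-type mice (circles) at all ages for Pou2af1, Igj and the chromosome 1 Pigr probe.

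Of the 6 member probes tested, 3 (Pou2af1, Igj and Pigr on chromosome 1) were higher in the null mice at an unadjusted limma p under 0.05 and 0 were lower, against 10.8% and 12.4% of all probes tested. Their median difference was 0.51, against -0.02 for all probes tested. The genotypes did not overlap in 2 of the 6 (Pou2af1 and Pigr on chromosome 1), against 5178 of all 22136 probes tested. At all 3 ages 3 of the 6 read higher in the null mouse, Igj at 5 weeks by signals below background, against 5698 of all. At a single age, with 1 mouse against 1 mouse and no replicate check, differences were counted at 2-fold or more. At 5 weeks 1 of 5 member probes was higher (Pigr on chromosome 1) and 1 lower (the Pigr repeat probe), against 4.37% and 5.80% of all probes. At 10 weeks 3 of 6 were higher (Pigr on chromosome 1, Pou2af1 and Cd79b) and 0 lower, against 4.99% and 6.38%. At 50 weeks 3 of 6 were higher (both Pigr probes and Pou2af1) and 0 lower, against 2.24% and 5.32%.

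**Figure D3:**
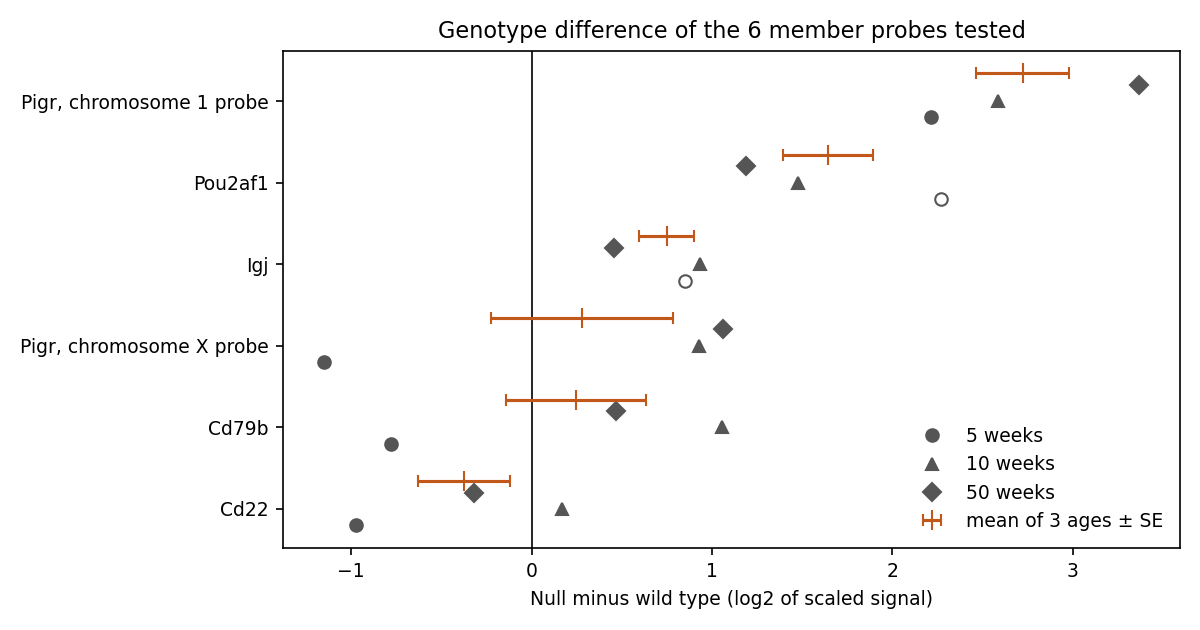
Null minus wild type (log2) for the 6 member probes tested, with 1 grey symbol per age and, in orange, the mean of the 3 ages with its SE. Open symbols mark ages at which a signal was not well above background; the chromosome 1 Pigr probe lies between 2.21 and 3.37, and the Pigr repeat probe, Cd79b and Cd22 lie on both sides of 0.

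The comparison of ages asks how these genes differ between young and old mice. With signals scaled to the 75th percentile, Igj was the tested member with the largest age difference in both genotypes. From 10 to 50 weeks its signal was 3.91-fold higher in wild-type and 2.81-fold higher in null mice. The mean difference of Igj was 1.73 ± 0.18 (log2, 50 minus 10 weeks, n = 2 per age; limma unadjusted p = 0.000557, adjusted p = 0.710), and 0% of all probes passed. From 5 to 50 weeks Igj was at least 9.24-fold higher in wild-type and at least 11.3-fold higher in null mice. The fit used the 5-week signals as read, although below background, and not these bounds. It gave 3.70 ± 0.18 (limma unadjusted p = 2.44e-05, adjusted p = 0.0899). In this contrast 0.00904% of all probes passed, namely the Y-linked Eif2s3y and Ddx3y. Igj ranked 6 among the 22136 probes by that p-value. Its size depends on the treatment of dim signals: with normexp the mean difference of Igj over both genotypes was 1.26 between 50 and 5 weeks, against 3.70 as reported, and 0.99 between 50 and 10 weeks. Between 50 and 5 weeks the order also turned with normexp, where Pigr on chromosome 1 differed by 2.03.

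Pigr on chromosome 1 was 1.47-fold higher at 50 than at 10 weeks in wild-type and 2.54-fold higher in null mice, a mean difference of 0.95 ± 0.32 (limma unadjusted p = 0.0376, adjusted p = 0.710). From 5 to 50 weeks it was 3.68-fold higher in wild-type and 8.17-fold higher in null mice (2.45 ± 0.32, limma unadjusted p = 0.00123, adjusted p = 0.214). Pou2af1 differed by -0.21 ± 0.30 between 50 and 10 weeks, Cd79b by -0.05 ± 0.48, Cd22 by -0.32 ± 0.31 and the Pigr repeat probe by 0.37 ± 0.62. At an unadjusted limma p under 0.05, 2 of the 6 member probes were higher at 50 than at 10 weeks and 3 higher at 50 than at 5 weeks, the third being Pou2af1, against 2.36% and 7.33% of all probes. The test of whether the genotype difference shifts with age called 0% of all probes, and 615 of them had an unadjusted limma p under 0.05. The shift per doubling of age was 0.35 ± 0.26 for Pigr on chromosome 1 (limma unadjusted p = 0.244) and -0.13 ± 0.29 for Igj (limma unadjusted p = 0.661).

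Probes of the antibody chains themselves shared the age pattern of Igj in part. The nearest probes to Igj, among 846 that varied enough, were a heavy chain probe that the array describes as Igh-VJ558 and names XM_001472091 (distance 0.47), LOC100047628 (0.50), Pkp1 (0.51), a desmosome gene, and a second heavy chain probe, XM_001474025 (0.55); the named genes that followed included Asb16 (0.74). XM_001474025, at mm9 chr12:114496985-114497044, begins with tcgggtaaacccaccaatgtcagcgtgtct, and XM_001472091 lies at mm9 chr12:114497090-114497149. They lie 10.5 and 10.4 kb from the probe the array describes as IGHE, on the side away from IGHG2C. In RefSeq (GRCm38.p6) the constant gene beside Ighe on that side is Igha, that of the IgA heavy chain; the files themselves do not give these probes that name. LOC100047628, at mm9 chr6:70676692-70676751, lies between probes of kappa light chain variable segments and the probe named Igk-C.

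XM_001474025 read 122, 831 and 2725 in the wild-type mice of 5, 10 and 50 weeks and 132, 1485 and 3876 in the null mice. XM_001472091 read 72.5, 450 and 1236 and 77.3, 732 and 1902. In both, the 5-week mice of the 2 genotypes were close and at 10 and 50 weeks the null mouse was above the wild-type mouse of its age. Their differences between 50 and 10 weeks were 1.55 ± 0.22 and 1.42 ± 0.21 (limma adjusted p = 0.710 each), and their genotype differences 0.49 ± 0.18 and 0.47 ± 0.17 (limma unadjusted p = 0.0525 and 0.0492). LOC100047628 read 23.2, 104 and 267 in the wild-type and 16.6, 121 and 311 in the null mice, with a genotype difference of -0.02. BC019489, described as the heavy chain of serum IgG2a, was below background at 5 weeks and read 18.2 and 43.6 in the wild-type and 18.1 and 60.9 in the null mice of 10 and 50 weeks. It lies at mm9 chr12:114525496-114525555, and the probe the array describes as IGHG2C at mm9 chr12:114525600-114525659. Which IgG2 subclass it reads was not tested. Another probe named XM_001474025 was above background on no array. Another LOC100047628 probe was above it only in the wild-type mice of 10 and 50 weeks (11.8 and 15.3). BC019425, also in the heavy chain constant region, was above it only in the null mice of 10 and 50 weeks (77.3 and 16.2).

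Most other probes of the heavy chain classes were at background. Of 17 probes in the heavy chain constant region 6 were above background on no array, among them those of IGHG1 and IGHG3, and 3 were above it on all 6. The probes of IGHM, IGHD and IGHE were each above background on 1 array. That of IGHG2C was above it in the 50-week wild-type mouse (25.2) and in the null mice of 10 and 50 weeks (16.6 and 37.3). It differed by 1.77 ± 0.70 between 50 and 10 weeks (limma unadjusted p = 0.0620). NAP115053-1, above background on all 6 arrays, differed by 0.26 ± 0.14 (limma unadjusted p = 0.142). Of the 17, only those above background on at least 3 arrays were tested. At an unadjusted limma p under 0.05, 3 of these were higher at 50 than at 10 weeks (XM_001474025, XM_001472091 and BC019489), against 2.36% of all probes. Over all 164 probes that the array describes as antibody chains, 121 were above background on no array, 15 were tested, and their median genotype difference was -0.09. These probes were found and listed after their values had been seen.

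**Figure D4:**
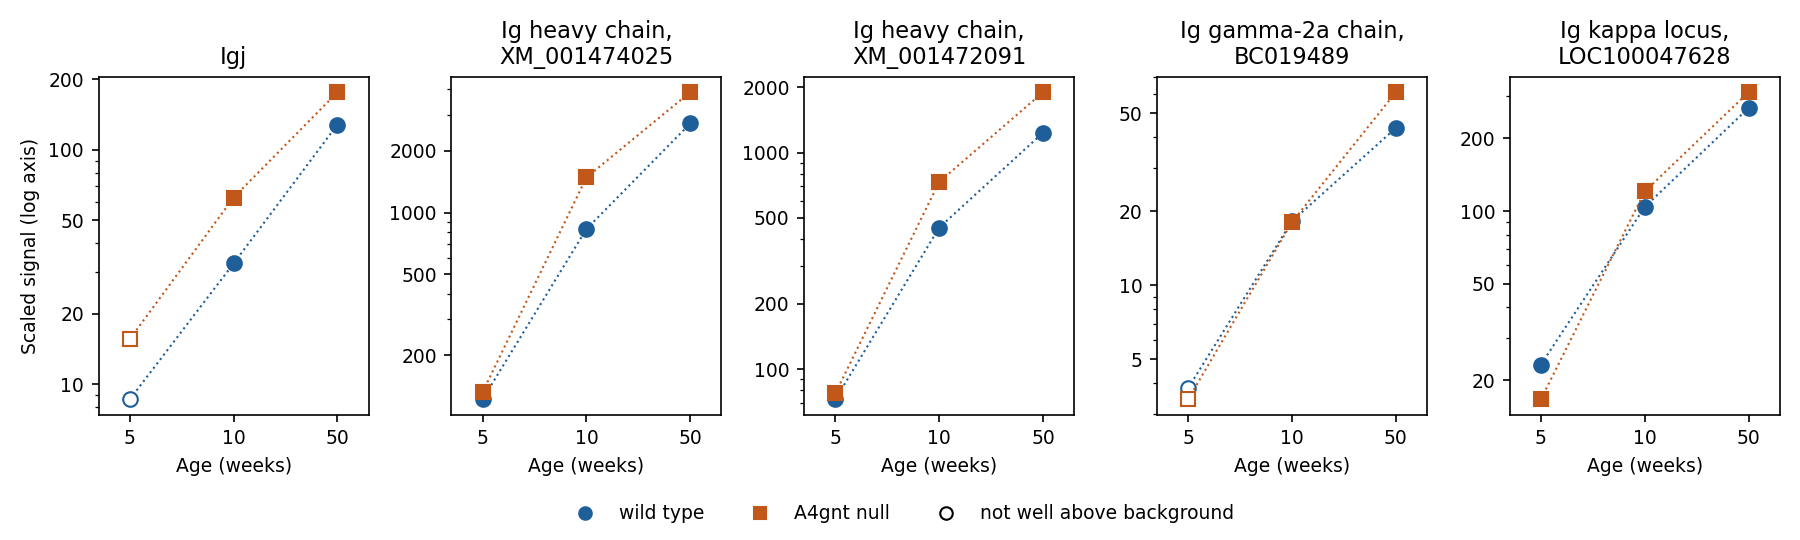
Scaled signal (log axis) of Igj and of 4 antibody chain probes against age in weeks, 1 mouse per point, with open symbols for signals not well above background. All 5 probes are lowest in the 5-week mice and highest in the 50-week mice of both genotypes.

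Other genes of B cells and plasma cells were read from lists. Their counts here and below stand against 10.8% of all probes tested higher and 12.4% lower at an unadjusted limma p under 0.05. Of 25 probes of 18 further B cell genes 18 were above background on no array, including every probe of the defining gene Pax5. Of the 6 tested, 0 were higher and 2 lower at an unadjusted limma p under 0.05, with a median of 0.10. These were the complement receptor Cr2 (-0.68 ± 0.13, limma adjusted p = 0.143) and the tetraspanin Cd37 (-0.55 ± 0.16, limma adjusted p = 0.181). Cd72, on its tested probe, and Vpreb3 had the opposite sign, at 0.56 ± 0.30 and 0.48 ± 0.21 (limma unadjusted p = 0.133 and 0.0789). At 2-fold or more, 2 of 7 probes, both of Cd72, were higher in the null mouse at 10 weeks, against 4.99% of all probes. At 50 weeks 1 of 7 was higher, against 2.24%, and at both ages 0 were lower, against 6.38% and 5.32%. Summed over its probes, the list stood between 836 and 1156 in wild-type and between 842 and 1429 in null mice, so the groups overlapped.

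Of 14 probes of 12 further plasma cell genes 10 were tested, with a median of -0.10; 1 was higher and 3 were lower at an unadjusted limma p under 0.05. The heparan sulfate proteoglycan Sdc1, which epithelium also makes, differed by 0.52 ± 0.12. Derl3, of endoplasmic reticulum quality control, differed by -1.63 ± 0.17, the receptor Tnfrsf13b (TACI) by -0.72 ± 0.13 and the elongation factor Ell2 by -0.42 ± 0.13. A second Tnfrsf13b probe went the other way: it was above background only in the null mice of 5 and 10 weeks, and so was not tested. It was at least 3.93-fold higher in null at 5 weeks, and the 10-week bound was 2.71-fold. The limma adjusted p of these 4 lay between 0.104 and 0.186. The single probe of the plasma cell gene Mzb1, named 2010001M09Rik on the array, and that of Irf4 were above background on no array. The plasma cell list summed to between 26466 and 44539 in wild-type and between 26115 and 30004 in null mice. The largest parts of these sums were Xbp1 (11626 to 15515), Eaf2 (4836 to 15200 on its brighter probe) and Creld2 (3460 to 9717). Derl3 read between 211 and 1710. Which cells carried the RNAs of this list was not tested.

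Genes that draw and keep B cells in mucosa had a median of 0.46 over 11 tested probes of 25, with 2 higher and 0 lower at an unadjusted limma p under 0.05. Itgb7, the integrin chain of gut-homing lymphocytes, read 19.7, 30.8 and 35.0 in the wild-type and 35.1, 64.8 and 71.4 in the null mice (0.98 ± 0.12, limma adjusted p = 0.112). Ccr7, a lymph node homing receptor, differed by 0.63 ± 0.12. Ccr10 and the survival factor Tnfsf13b were above background on no array, and the B cell chemokine Cxcl13 on 1, that of the 5-week wild-type mouse (48.5).

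Of 29 probes of known inducers of Pigr and their receptors 22 were tested, with a median of 0.01. At an unadjusted limma p under 0.05, 2 were higher and 0 lower, against 10.8% and 12.4% of all probes tested. The count of higher probes was thus not above the share over all probes. Il1b, an inflammatory cytokine, read 18.1, 59.2 and 11.0 in the wild-type and 141, 123 and 182 in the null mice (2.69 ± 0.61, limma adjusted p = 0.153), with the 50-week wild-type signal not well above background. The interleukin 4 receptor chain Il4ra differed by 0.96 ± 0.27 on 1 probe and by 0.24 on the other. The cytokines Ifng, Il4 and Il17a, themselves inducers of Pigr, were above background on no array, and Tnf on 1. Of the genes that carry Pigr through the cell, Rab17 differed by -0.99 ± 0.24 on 1 probe (limma adjusted p = 0.159) and by -0.95 on the other, the opposite direction to Pigr, and the list's median over 8 tested probes was -0.08. The Fc receptor genes beside Pigr, Fcamr and Fcmr (Faim3 on the array), were above background on no array.

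Markers of other cell types were read too, and their part in these results was not tested. Probes are counted as higher or lower at an unadjusted limma p under 0.05, against 10.8% and 12.4% of all probes tested. Over 9 epithelial probes 2 were higher and 0 lower, with a median of 0.17. Cldn7 differed by 1.98 ± 0.16 and Epcam by 0.77 ± 0.14, and the list summed to between 344054 and 429388 in wild-type and between 407899 and 441562 in null mice. Of 12 probes of 8 intestinal epithelial genes 8 were tested and 6 were higher, with a median of 0.96. They were Gpa33 (1.46 ± 0.19 and 1.38 ± 0.20 on its 2 probes), Vil1 (0.98 ± 0.19) and 3 probes of Lgals4, the one with the largest difference at 0.94 ± 0.16. This list's sums did not overlap (83633 to 145325 in wild-type, 192793 to 223273 in null mice). Intestinal epithelium carries Pigr, and its part in the Pigr difference was not tested. No tested probe of the list's other genes had an unadjusted limma p under 0.05. At 2-fold or more, 2 of 7 probes were higher in the null mouse at 5 weeks and 8 of 10 at 10 weeks, with 0 lower. At 50 weeks 1 of 9 was higher and 2 were lower, against 2.24% and 5.32% of all probes.

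Of 6 tested pan-leukocyte probes 3 were higher and 0 lower, with a median of 0.55: Cd52 (0.84 ± 0.14), Coro1a (0.76 ± 0.11) and Laptm5 (0.35 ± 0.12). Their list summed to between 408 and 459 in wild-type and between 642 and 680 in null mice, and their part in the differences of Pou2af1 and Igj was not tested. Of 12 T cell probes 4 were tested and 0 were higher or lower, with a median of 0.07; those of Cd4 and Cd3e, named by the rule, differed by -0.54 ± 0.21 and 0.03 ± 0.15. Of 10 tested liver probes 2 were lower, Apoa2 (-1.66 ± 0.58) and Fga (-0.55 ± 0.16), with a median of -2.76. Apoa2 stood at 6682 in the 10-week wild-type mouse and between 668 and 1751 in the other 5. At 2-fold or more, 0 of 10 liver probes were lower in the null mouse at 5 weeks, 10 of 11 at 10 weeks and 8 of 10 at 50 weeks. Over all probes these shares were 5.80%, 6.38% and 5.32%. At each age 0 liver probes were higher, against 4.37%, 4.99% and 2.24%.

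For Pigr on chromosome 1 and Pou2af1 the most similar named genes were also sought, a choice made after their values were seen. The nearest to Pigr, of 618 probes that varied enough, were the nucleoside transporter Slc28a3 (distance 0.55), Samd5 (0.57) and Nccrp1 (0.59). The nearest to Pou2af1, of 1974, were the chemokine Cxcl14 (0.28), the hyaluronan receptor Cd44 (0.28) and Gkn3 (0.29), a secreted protein of gland mucous cells. These distances rest on 6 arrays that share their normalization, and are given as a description.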

How the data were processed

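Total RNA of 6 mice was labelled with Cy3 by the Quick Amp kit, per the labels. Fluorescence intensities were extracted and background-subtracted by the authors with Agilent Feature Extraction 10.7.1.1, per the file headers. A deposited table by the authors holds log2 values, which equal the log2 processed signal plus 1 constant per array within 0.001 and served as an alternative. Here the log2 of the processed signal minus each array's 75th percentile was used, spots flagged as outliers were dropped, and the background calls were the scanner's own flags. Probes above background on at least 3 of 6 arrays (22136 of 39429) entered a linear model in limma 3.58.1 (R 4.3.3) with genotype and age as factors, and p-values were adjusted by Benjamini-Hochberg over all of them. The age contrasts came from the same model, and the trend test crossed genotype with log2 age. The model was tested on simulated data. As each genotype and age is 1 mouse, the error is the spread of the differences between ages (2 residual and 2.21 prior degrees of freedom), and precision is limited by the number of arrays.

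A signal below background on 1 side gives a bound, against the higher of that array's lowest signal above background and the probe's own. Named genes are all member probes, the list members with an unadjusted genotype p under 0.05 (at most 4 per list by size, else the 2 with the highest mean signal), and the 3 named genes nearest in pattern to Igj, Cd22 and the Pigr probe of highest mean signal. A few other list members, below background or above it, are named besides, chosen after their values were seen. A gene that this rule names and a list member are not reported here by name. The members and lists were chosen with earlier results of these data known. The antibody chain probes were listed after their values were seen. The alternatives were quantile and median scaling, normexp (offset 50), the deposited log2 table, filters on dim probes, 1 probe per gene name, outlier spots kept, a variance trend, no age term and leaving out each age; a floor for signals below background was added after seeing the data. Probe coordinates and build mm9 are those of the files; RefSeq (GRCm38.p6) was used for names and gene order only.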

Additional observations from a re-analysis of the deposited data

Results flagged for a closer look

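With 3 mice per genotype no group was large enough to look for outlying mice. In 2 of the member probes the ages moved in opposite directions in the 2 genotypes, each change being 1 mouse against 1 mouse, so the difference was not tested. The Pigr repeat probe changed by -1.12 (log2, 50 minus 5 weeks) in wild-type and by 1.09 in null mice, a difference of 2.21. Cd79b changed by 0.24 (log2, 50 minus 10 weeks) in wild-type and by -0.35 in null mice, a difference of -0.59.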

How the results depend on the processing

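Over all probes, the count called for genotype was 0 and became 1 with quantile normalization, 300 with normexp (138 higher, 162 lower), 71 with a variance trend and 4 without an age term. The 2 probes called between 50 and 5 weeks became 18 with normexp, 6 with a variance trend, and 0 without a filter on dim probes or with probes above background on all 6 arrays. The counts past 2-fold at 5, 10 and 50 weeks (980, 1177 and 520 higher, 1303, 1506 and 1237 lower) were 373, 469 and 220 higher and 294, 625 and 420 lower with normexp. Among members, Pigr on chromosome 1 stood between 2.24 and 2.98 over 13 alternatives, Pou2af1 between 0.39 and 1.87, Igj between 0.25 and 0.89 and Cd22 between -0.65 and -0.08, without a change of direction. Leaving out 1 age at a time, Cd79b ranged from -0.16 to 0.76 and the Pigr repeat probe from -0.11 to 0.99. Cd79b reversed to -0.045 with normexp and to -0.16 without the 10-week pair, the Pigr repeat probe to -0.04 and -0.11 without the 10-week or the 50-week pair, and the trend of Igj to 0.038 with normexp; the cause was not tested. The filter on all 6 arrays gives no value for Pou2af1 and Igj, and 1 probe per gene name none for Pigr on chromosome 1. The fit has age as a factor and so pairs the genotypes by age; the labels carry no replicate numbers for any other block. Signals near background limit Pou2af1, and Igj at 5 weeks.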
